A study of Caenorhabditis elegans with 4 samples.

Results

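H3K4me3 peaks of mixed-stage Caenorhabditis elegans embryos that lay closer than 2000 bp to another peak on the same chromosome are described here. The distance was measured from edge to edge in the peak list of replicate 1, and peaks linked by such distances were grouped into runs. Of the 3811 replicate 1 peaks, 916 met this rule and 2895 did not. They formed 486 links between neighbours and 430 runs. Both H3K4me3 replicates were ChIP-seq libraries from embryos of the wild-type strain N2, made with a mouse monoclonal antibody from Wako, and no mutant or treated animals were included. The embryos were unsynchronized, came from worms grown in liquid culture and hold many cell types. The replicates are called biological, but nothing in the labels says how separate their cultures were. Whether neighbouring peaks occur on the same chromosome copies, in the same cells or at the same stage therefore cannot be told apart.

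Trimethylation of histone H3 at lysine 4 (H3K4me3) marks nucleosomes at and just downstream of active promoters, and in animals it is deposited by SET1/COMPASS-type methyltransferases. The C. elegans genome is compact, with short distances between genes and many genes in operons, in which several genes share a promoter. Neighbouring promoters can therefore lie close to each other, as in gene pairs that are transcribed in opposite directions from a shared upstream region. The chromosomes are holocentric, and by convention their central regions are called centres and their distal regions arms. LEM-2 is a transmembrane protein of the inner nuclear membrane, and the study divided the genome into LEM-2 subdomains, which associate with it, and gaps between them, in 4 size classes (small, medium, large and extra large).

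The peaks were called by the authors in each replicate separately, and the score of a peak is the negative log10 of its p-value, multiplied by 10. The lists hold no read counts, so depth is unknown from them. By the methods of the paper, the libraries were not sequenced equally deeply, and the one with the longer peak list was the deeper. Replicate 1 peaks covered 11.3 Mb, and the 3487 replicate 2 peaks covered 9.15 Mb. Scores pile up at 3100 and above. Peaks are sites within a library and not replicates, and 2 lists allow no test between replicates. No p-values are given, and shares carry exact Clopper-Pearson 95% intervals, which cover counting error only. These intervals take peaks as independent, but neighbours become closely spaced together. The intervals for shares of closely spaced peaks are therefore too narrow. Coordinates are given as ce4, the build used in the study for its H3K4me3 reads, because the lists name none. The distances between peaks do not depend on this choice, but the assignment to LEM-2 regions does.

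Closely spaced peaks made up 24.0% of the replicate 1 list (95% interval 22.7 to 25.4%). The same rule applied to the replicate 2 list gave 770 of 3487 peaks, or 22.1% (20.7 to 23.5%), and the mean was 23.1% ± 1.38 (SD, n = 2). They covered 2.72 Mb in replicate 1, which was 24.0% of all bases in peaks. In replicate 2 they covered 2.06 Mb, or 22.5%. Most runs were pairs. In replicate 1, 376 runs held 2 peaks, 52 held 3 and 2 held 4, and no run was longer. In replicate 2, 310 runs held 2 peaks, 46 held 3 and 3 held 4. Runs of 3 or more were 12.6% of the replicate 1 runs (9.58 to 16.1%) and 13.6% of the replicate 2 runs (10.3 to 17.6%). Links were 486 of all 3805 neighbouring pairs in replicate 1 and 411 of all 3481 in replicate 2. With links this scarce among neighbours, short runs follow largely from the limit. They are not read as a trait of the members.

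The distances within links of replicate 1 had a median of 970 bp, with quartiles of 416 and 1520 bp and a shortest distance of 1 bp. In replicate 2 the median was 887 bp (quartiles 405 and 1394 bp). Over all neighbouring pairs on a chromosome the median distance was 12978 bp in replicate 1 and 14974 bp in replicate 2. In bins of 500 bp, the shortest distances were the most frequent, with 145 replicate 1 pairs below 500 bp, 105 from 500 to 1000 bp, 111 from 1000 to 1500 bp and 125 from 1500 to 2000 bp. Beyond the limit the counts went on without a break, with 95 pairs from 2000 to 2500 bp and 117 from 2500 to 3000 bp. Fewer than 100 bp separated 30 of the replicate 1 links and 24 of the replicate 2 links. The limit falls within a continuous distribution. The replicate 1 distances nearest to it were 1989, 1995 and 1999 bp inside, and 2000, 2006 and 2008 bp outside.

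**Figure D1:**
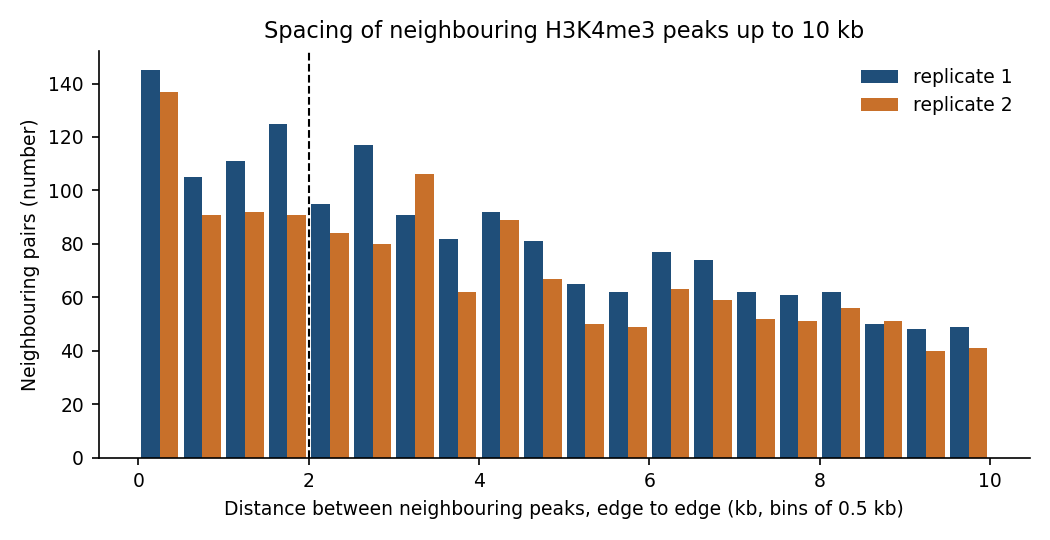
Number of neighbouring peak pairs (vertical axis) by edge-to-edge distance in kb (horizontal axis, bins of 0.5 kb up to 10 kb) in replicate 1 (blue) and replicate 2 (orange), with the 2000 bp limit as a dashed line. The first bin is the highest in each list, at 145 and 137 pairs, and the counts show no step at the limit.

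The replicate 1 run with the longest span lay in the centre of chromosome II, within an extra large gap, from 9297983 to 9324458. In replicate 1 it held 4 peaks of 11816, 7277, 2581 and 2663 bp, separated by 355, 1256 and 528 bp. Replicate 2 had 5 peaks there. Its peaks from 9298117 to 9303125 and from 9304278 to 9309683, which are 1152 bp apart, both lay within the first and widest replicate 1 peak. The distance between the peaks that follow was 3670 bp in replicate 2, where replicate 1 had 1256 bp.

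The other run of 4 peaks lay in the left arm of chromosome III, also in an extra large gap, from 4085338 to 4100491. Its replicate 1 peaks were 4109, 2255, 4426 and 2933 bp wide, with distances of 974, 298 and 159 bp. Replicate 2 kept all 4 apart, with widths of 3176, 1980, 2894 and 2262 bp and distances of 1657, 424 and 2068 bp. Each replicate 2 peak was narrower than its counterpart and each distance was longer. Replicate 2 gave the first of these peaks a score of 3100 and the next a score of 148.85, so strong and weak peaks stood side by side.

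The next named runs held 3 peaks each. On chromosome II, from 10537238 to 10559358, replicate 1 had a peak of 14313 bp that began 70 bp after a peak of 4160 bp. In replicate 2 the corresponding peaks were 14038 and 2120 bp wide and 1904 bp apart. The wide replicate 2 peak also reached 22 bp into the replicate 1 peak of 4160 bp, so by the rule of at least 1 bp this link counts below as joined in each direction, although each list has separate peaks there. On chromosome III, from 5704707 to 5724395, the last replicate 1 peak, of 10333 bp, was overlapped by 2 replicate 2 peaks of 3384 and 4985 bp, separated by 79 bp. The remaining run, on chromosome III from 6967074 to 6985776, had 3 peaks in replicate 1 and 4 in replicate 2, where its middle peak was again called as 2.

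**Figure D2:**
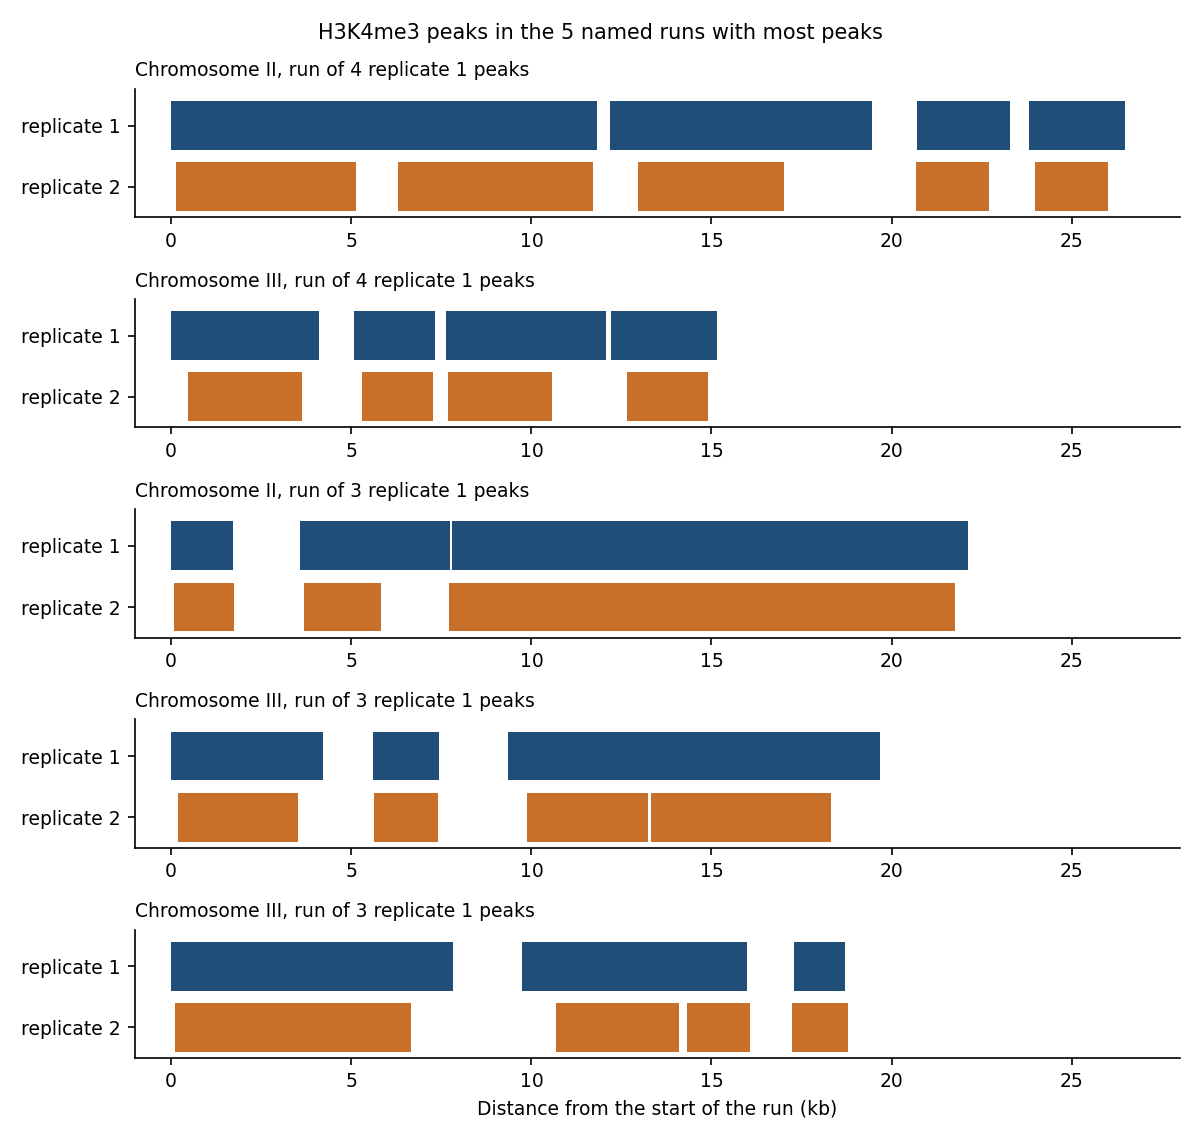
Peaks of replicate 1 (blue, upper row) and replicate 2 (orange, lower row) in the 5 runs with most peaks outside chromosome I, drawn to scale by distance from the start of the run in kb. The run of 4 peaks on chromosome III has 4 peaks in each list, whereas the other run of 4 has 5 peaks in replicate 2.

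On the remaining chromosomes the runs with most peaks also held 3. The run on chromosome IV, from 384058 to 395290, had replicate 1 distances of 1559 and 452 bp and replicate 2 distances of 2015 and 924 bp. The run on chromosome V, from 12290589 to 12304261, had distances of 1843 and 30 bp in replicate 1 and of 2066 and 1691 bp in replicate 2. Replicate 2 had 3 peaks in each of these runs. The run on chromosome X, from 16532191 to 16542469, differed, since replicate 2 had only 1 peak there. The 3 replicate 1 peaks of that run scored 626.02, 807.91 and 62.53, and the replicate 2 peak, which lay in the middle one, scored 116.21.

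To ask whether the separation of neighbours recurred, each link of replicate 1 was looked up in replicate 2. The pair was taken as kept apart when different replicate 2 peaks overlapped its 2 members and none overlapped both. Of the 486 links, 343 were kept apart, or 70.6% (66.3 to 74.6%), against 74.7% of all 3805 neighbouring replicate 1 pairs. A single replicate 2 peak overlapped both members of 7 links, or 1.44% (0.581 to 2.95%), against 0.184% of all pairs. The joined pairs in that last share are these same 7 links. Of the 3319 pairs at or above the limit, 0 were joined. A peak can overlap both members only if it spans the distance between them. The short distances by which links were chosen therefore favour joining. In 4 of these 7 it covered at least 50% of each member, and in the other 3 a further replicate 2 peak overlapped one of the members. In 114 links (23.5%, 19.8 to 27.5%) replicate 2 had a peak at one side only, against 22.5% of all pairs. In 22 links (4.53%, 2.86 to 6.77%) it had a peak at neither side, against 2.60% of all pairs. Where replicate 2 had a peak at both sides, it kept 343 of 350 links apart, or 98.0% (95.9 to 99.2%). Few replicate 1 links were thus overlapped on both sides by the same replicate 2 peak, and most links that it did not keep apart lacked a replicate 2 peak at one of the members.

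The joined links were all among the shortest. All 7 had replicate 1 distances below 500 bp, with a median of 24.0 bp and a longest of 366 bp. The share kept apart was 63.4% (55.1 to 71.3%) below 500 bp, 73.3% from 500 to 1000 bp, 69.4% from 1000 to 1500 bp and 77.6% (69.3 to 84.6%) from 1500 to 2000 bp. Pairs from 2000 to 5000 bp apart, just beyond the limit, were kept apart in 414 of 558 cases, or 74.2% (70.4 to 77.8%). Outside chromosome I, the joined link with the longest distance lay on chromosome X from 8085433 to 8090493. Its replicate 1 peaks of 2323 and 2648 bp were 90 bp apart, and replicate 2 had a peak of 4336 bp over both. The closest link, 1 bp apart on chromosome III from 7316897 to 7320106, had scores of 125.17 and 97.02 and no replicate 2 peak at either side. The widest-spaced link outside chromosome I, at 1980 bp on chromosome X from 4457346 to 4463197, was 1992 bp apart in replicate 2. The pair just beyond the limit, 2000 bp apart on the left arm of X from 2430321 to 2440930, was 2245 bp apart in replicate 2.

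Links of replicate 2 were looked up in replicate 1 in the same way. Of the 411 links of replicate 2, replicate 1 kept 264 apart, or 64.2% (59.4 to 68.9%), against 91.5% of all neighbouring replicate 2 pairs. Both members were overlapped by 1 replicate 1 peak in 114 links, or 27.7% (23.5 to 32.3%), against 3.36% of all pairs. That peak covered at least 50% of each member in 111 of the 114 links. The joined pairs among all pairs were mostly these same links, since only 3 of the 3070 pairs at or above the limit were joined. A joining peak must span the distance between the members, and links were chosen by that distance. The contrasts with all pairs in the shares joined and kept apart thus follow partly from the rule. Replicate 1 had a peak at one side only in 26 links (6.33%, against 4.88% of all pairs) and at neither side in 7 (1.70%, against 0.230%). The share of joined links fell with distance, being 59.1% (50.4 to 67.4%) below 500 bp, 20.9% (13.1 to 30.7%) from 500 to 1000 bp, 12.0% (6.12 to 20.4%) from 1000 to 1500 bp and 3.30% (0.685 to 9.33%) from 1500 to 2000 bp. From 2000 to 3000 bp it was 1.83%, or 3 of 164 pairs, and no pair farther apart was joined. The intervals of the joined share in the 2 directions, 0.581 to 2.95% and 23.5 to 32.3%, did not overlap. They cover counting error over links only, and the directions use the same 2 lists. They are thus no test of a difference between replicates. The libraries also differed in depth, and its part was not tested. The joining replicate 1 peaks numbered 106 and had a median width of 6347 bp. Of them, 29 were themselves closely spaced, or 27.4%, which was near the 24.0% of the whole replicate 1 list.

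**Figure D3:**
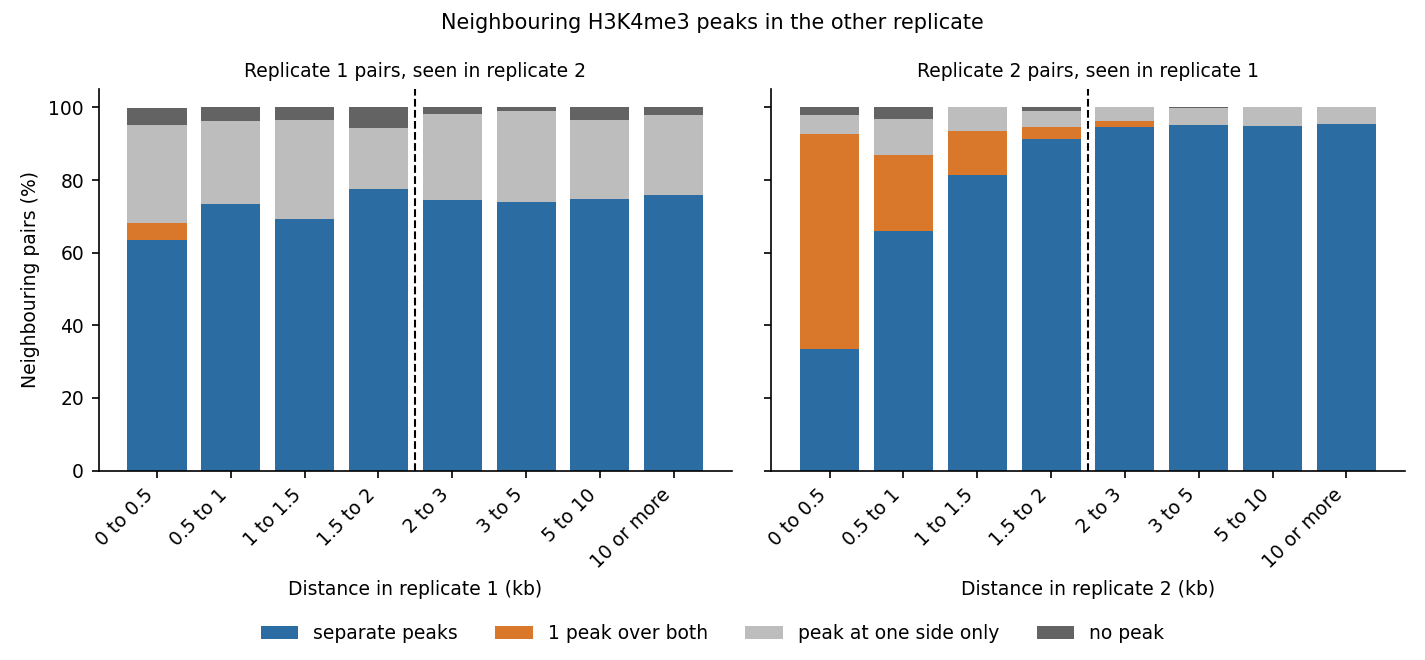
Neighbouring pairs in percent (vertical axis) by distance in kb (horizontal axis) for pairs of replicate 1 looked up in replicate 2 (left) and pairs of replicate 2 looked up in replicate 1 (right), divided into separate peaks, 1 peak over both, a peak at one side only and no peak. Below 0.5 kb, 1 peak lay over both members in 4.83% of replicate 1 pairs and in 59.1% of replicate 2 pairs, and dashed lines mark the 2000 bp limit.

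Among the 343 links kept apart, the replicate 2 peaks were always next to each other, with no further peak between. The distance had a median of 1387 bp in replicate 2 and of 1016 bp in replicate 1. It was longer in replicate 2 for 311 links and shorter for 32, and the median change was 224 bp (quartiles 81.5 and 600 bp). These links were chosen by a short distance in replicate 1. For the 264 links chosen by a short distance in replicate 2, the replicate 1 distance was still shorter in 229, with a median change of -159 bp. The distance between neighbours was thus shorter in replicate 1 whichever list chose the links. Across the 343 links the distances had a Spearman rho of 0.71, given as a description across links that share 2 libraries. In 261 links the distance was below 2000 bp in each list. These shared links were 53.7% of the replicate 1 links and 63.5% of the replicate 2 links. A further 82 replicate 1 links were kept apart at 2000 bp or more, up to 4547 bp.

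**Figure D4:**
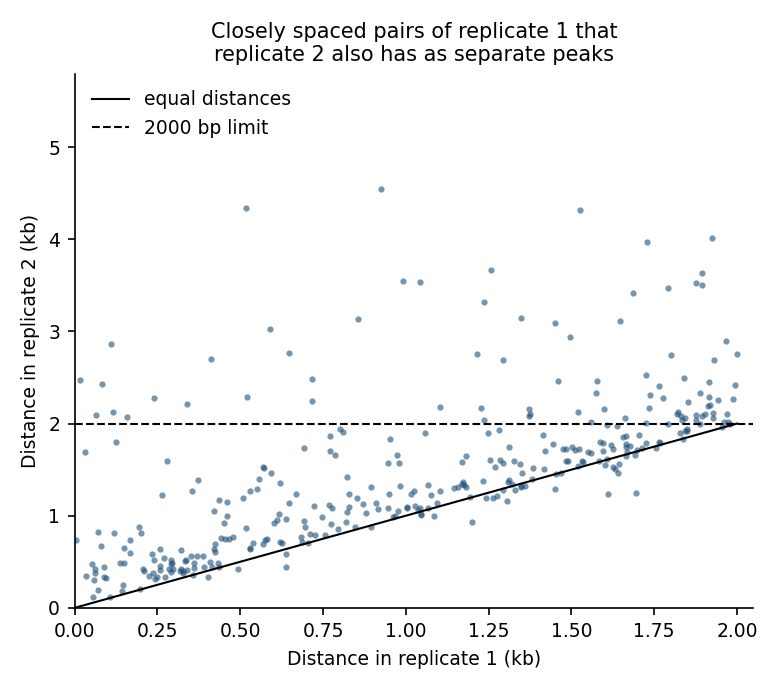
Distance between the members of a link in kb in replicate 2 (vertical axis) against replicate 1 (horizontal axis) for the 343 replicate 1 links that replicate 2 kept apart, each point a link. Most points lie above the line of equal distances, at 311 links, and 82 lie at or above the dashed line at 2000 bp.

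The members that replicate 2 lacked had low scores. In the 114 links with a replicate 2 peak at one side only, the member without a counterpart scored lower than its neighbour in 108 and higher in 6. Its median score was 117 and its highest 626, whereas the median of the member with a counterpart was 1825. Over all members, a replicate 2 peak overlapped 765 of 916, or 83.5%, against 2519 of 2895 other peaks, or 87.0%, and 86.2% of the whole list. In replicate 2, replicate 1 overlapped 95.6% of the closely spaced peaks, 97.8% of the others and 97.3% of that list. The mean difference between closely spaced and other peaks was -2.87 ± 0.886 percentage points (SD, n = 2). The shares went with the score. Below 100, 20.8% of the replicate 1 members and 19.9% of the other peaks were overlapped. From 100 to 300 the shares were 47.3% (38.5 to 56.2%) and 53.0% (47.7 to 58.1%), and from 300 to 1000 they were 88.4% (82.8 to 92.7%) and 93.4% (90.9 to 95.4%). At 1000 or more, all replicate 1 members and all but 1 of the other peaks were overlapped. The intervals of members and other peaks overlapped within each of these score ranges in replicate 1. In replicate 2 they overlapped except from 100 to 300, where replicate 1 overlapped 92.4% of members (87.4 to 95.9%) and 98.1% of other peaks (96.6 to 99.0%).

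The median score was 1361 among members and 1681 among other peaks in replicate 1, and 513 and 632 in replicate 2. Scores of 3100 or more were held by 273 members, or 29.8%, and by 34.5% of other peaks, against 33.4% of the whole replicate 1 list. In replicate 2 they were held by 6.23% of members and 7.62% of other peaks, against 7.31% of that list. Members were hence somewhat lower in score in each list. The lower and higher scores of links were set beside those of pairs farther apart. The lower score of a link had a median of 462 and the higher a median of 3100 in replicate 1, and 238 and 1054 in replicate 2. In pairs 5000 bp or more apart these medians were 561 and 3100 in replicate 1, and 264 and 1246 in replicate 2. Both members were at 3100 or more in 38 of the 486 replicate 1 links (7.82%), one in 212 (43.6%) and none in 236 (48.6%). Neighbouring pairs 5000 bp or more apart had both at 3100 or more in 12.2%, one in 43.4% and none in 44.4%. In replicate 2, a single member was at 3100 or more in 10.5% of links and in 13.9% of pairs 5000 bp or more apart. These shares were not tested against each other.

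The widths of members and other peaks were nearly the same. The peak edges define the distances, so widths are given as a description. The median was 2375 bp (quartiles 1927 and 3406 bp) for members and 2388 bp (quartiles 1906 and 3318 bp) for other peaks in replicate 1. In replicate 2 it was 2221 bp for members and 2190 bp for other peaks, and the direction differed between the lists. Peaks of 5000 bp or more were 93 members, or 10.2%, and 10.1% of other peaks, against 10.1% of the whole list. In replicate 2 they were 5.58% of members and 5.56% of other peaks, against 5.56% of that list. Among members with a single replicate 2 counterpart, that counterpart had a median width of 2184 bp, against 2199 bp for other peaks. In the other direction the counterparts did differ. The single replicate 1 counterparts had a median width of 2958 bp for replicate 2 members and of 2470 bp for other peaks. They include replicate 1 peaks that overlap both members of a link. The inner peaks of replicate 1 runs of 3 or more, 56 in number, had a median width of 2627 bp, and the 108 outer peaks of those runs had 2558 bp. In a link the wider peak was a median of 1.44 times as wide as the narrower, and in 104 links (21.4%) it was at least 2 times as wide. In pairs 5000 bp or more apart the ratio was 1.45 and the share 24.9%, and in pairs from 2000 to 5000 bp apart 1.50 and 24.0%. The whole link spanned a median of 6249 bp and runs of 3 or more a median of 10064 bp.

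Beyond their own members, runs were about as far from the next peak as other peaks were. From the outer edges of a replicate 1 run to the nearest peak outside it, the median distance was 8060 bp, and 30.0% of runs had such a peak within 5000 bp. The nearest neighbour of the other peaks was a median of 8451 bp away, and within 5000 bp for 30.5%. In replicate 2 the medians were 8675 bp for runs and 9147 bp for other peaks. By the rule, both kinds of distance are at least 2000 bp.

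The chromosomes differed in the share of closely spaced peaks. In replicate 1 it was 29.4% on chromosome I (95% interval 26.1 to 32.8%), 27.6% on II (24.2 to 31.3%), 26.4% on III (23.2 to 29.8%), 23.6% on IV (20.3 to 27.3%), 19.7% on X (16.7 to 23.0%) and 14.6% on V (11.6 to 17.9%). Each interval overlapped that of the next chromosome in this order. The interval of V did not overlap those of I, II, III and IV, and the interval of X did not overlap those of I, II and III. Because neighbours become members together, these intervals are too narrow. The upper end for X (23.0%) lay close to the lower end for III (23.2%). In replicate 2 the shares were 25.7% on I, 27.8% on II, 23.7% on III, 22.4% on IV, 15.8% on V and 15.0% on X, so V and X were again the lowest, although the interval of V (12.6 to 19.4%) overlapped that of IV (19.0 to 26.2%). Over both lists the mean was 15.2% ± 0.859 on V and 17.3% ± 3.33 on X, and between 23.0% ± 0.855 and 27.7% ± 0.137 on the other chromosomes (SD, n = 2).

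The number of peaks per Mb also differed. Chromosome V had the fewest replicate 1 peaks, at 24.6 per Mb, and III and I the most, at 50.6 and 49.2 per Mb. The order of the shares was not the same. X had 35.8 peaks per Mb and IV had 33.6, while the share of closely spaced peaks was 19.7% on X and 23.6% on IV, with overlapping intervals. On III the share was 26.4%, below the 27.6% of II, which had 41.5 peaks per Mb. Runs of 3 or more were 3 of the 61 runs on X and 3 of the 36 on V. They were 17 of 83 on III, 14 of 102 on I, 10 of 82 on II and 7 of 66 on IV.

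Closely spaced peaks were more frequent in chromosome centres. In replicate 1, 538 members, or 58.7%, and 50.8% of other peaks had their midpoint in a centre, against 52.7% of the whole list. The difference of 7.96 percentage points in replicate 1 was 3.61 in replicate 2 (mean 5.78 ± 3.07, SD, n = 2), where 52.0% of the whole list lay in centres. Seen by region, 26.8% of centre peaks (24.9 to 28.8%) and 21.0% of arm peaks (19.1 to 22.9%) were closely spaced in replicate 1. In replicate 2 these shares were 23.3% (21.3 to 25.3%) and 20.8% (18.9 to 22.8%), and their intervals overlapped. The share was higher in the centre than in the arms on each of the 6 chromosomes in replicate 1. On X the difference was small, at 20.0% and 19.0%, and the right arm of X had 20.8%. In replicate 2 this held on 4, of which IV was nearly even, at 22.5% and 22.4%. On V the replicate 2 share was 14.1% in the centre and 16.9% in the arms, and on X 13.9% and 17.4%. Centres also had more peaks, at 49.1 per Mb, than left and right arms, at 31.3 and 29.3 per Mb. The part of peak density in the difference was not tested. In replicate 1 the centres of I and II had the highest shares of all, at 33.9% and 32.6%, and the right arm of V the lowest, at 9.76%.

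In LEM-2 subdomains closely spaced peaks were less frequent than in gaps. Of the members, 211, or 23.0%, had their midpoint in a subdomain, and so had 32.3% of other peaks, against 30.0% of the whole replicate 1 list. In replicate 2, 25.3% of members, 31.0% of other peaks and 29.7% of the whole list did so. The difference was -9.25 percentage points in replicate 1 and -5.69 in replicate 2 (mean -7.47 ± 2.52, SD, n = 2). By region, 18.4% of subdomain peaks (16.2 to 20.8%) and 26.5% of gap peaks (24.8 to 28.2%) were closely spaced in replicate 1. In replicate 2 these shares were 18.8% (16.5 to 21.3%) and 23.5% (21.8 to 25.2%). The intervals did not overlap in either list, but in replicate 2 their ends lay close, at 21.3 and 21.8%. They are too narrow, because neighbours become members together. Peak density differed in the same direction, at 23.0 peaks per Mb in subdomains and between 47.8 and 153 in the gap classes of replicate 1. The part of peak density here was not tested either.

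The gap classes were not ordered by size. The share of closely spaced peaks was 17.0% in small gaps (9.87 to 26.6%), 29.0% in medium gaps (24.3 to 34.0%), 23.0% in large gaps (18.7 to 27.8%) and 27.1% in extra large gaps (25.1 to 29.2%) in replicate 1. In replicate 2 it was 21.1, 25.4, 25.9 and 22.8%, with overlapping intervals throughout. The order of the classes thus differed between the lists. Small gaps had the highest density of peaks, at 153 per Mb, and the lowest share of closely spaced peaks in replicate 1. A peak midpoint lay in 84 of the 162 small gaps, 2 or more lay in only 3, and 12 small gaps held a member, with 15 members in all. In subdomains, 132 held 2 or more peaks and 67 of 360 a member, with up to 12 members in one subdomain. Among the other classes, 43 of 147 medium, 21 of 35 large and all 10 extra large gaps held a member. In these classes 96 medium, all 35 large and all 10 extra large gaps held 2 or more peaks. A region with more peaks has more occasions to hold a member. The counts of regions with a member are therefore not read as a trait of the classes.

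**Figure D5:**
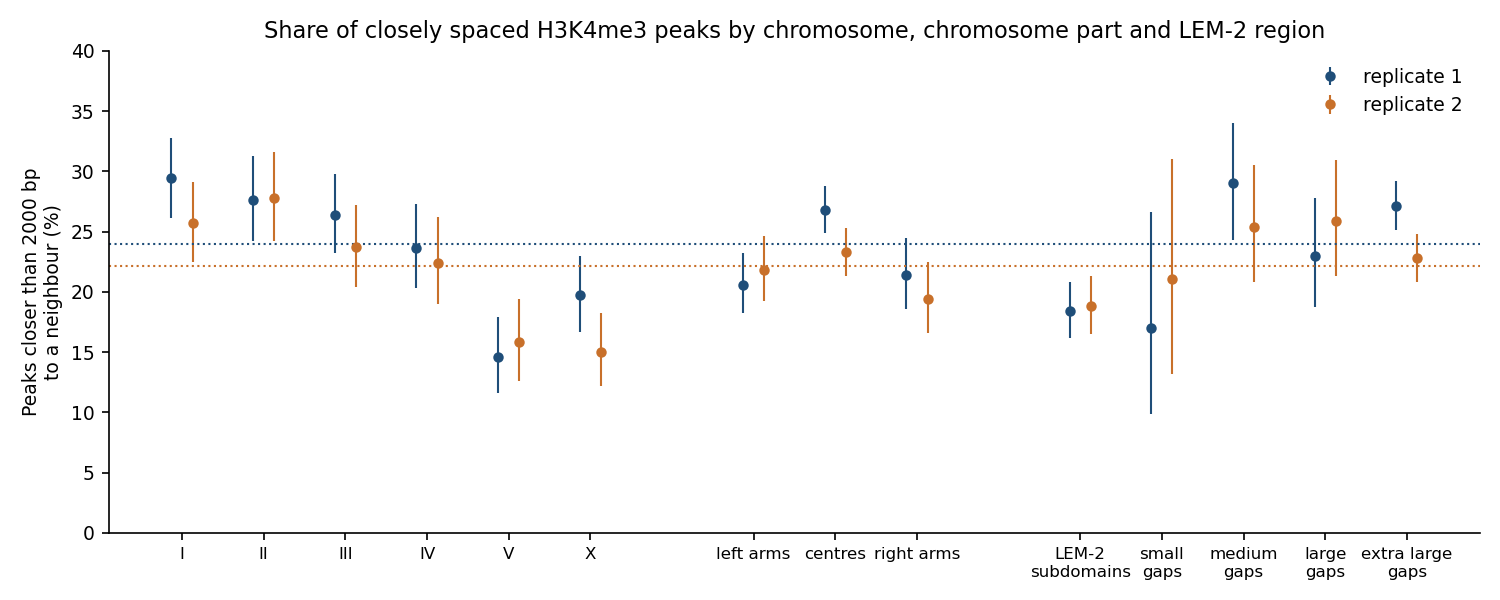
Share of peaks closer than 2000 bp to a neighbour in percent (vertical axis) by chromosome, chromosome part and LEM-2 region (horizontal axis) in replicate 1 (blue) and replicate 2 (orange), with exact Clopper-Pearson 95% intervals as bars and the share of the whole list, 24.0 and 22.1%, as dotted lines. Chromosomes V and X, the left and right arms, the LEM-2 subdomains and the small gaps lie below the dotted lines in each list. The bars of the small gaps cross the lines in each list.

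Members lay in more than 1 subdomain or gap in 21 of the 430 replicate 1 runs. All members lay within 1 subdomain in 88 runs and in gaps of a single class in 321. In 5 further runs the members were divided between 2 subdomains, on either side of a gap. The remaining 16 runs had members in both a subdomain and a gap. In 10 of them the gap was small, in 5 it was medium and in 1 it was large. In 2 links the members were divided between an arm and a centre. Of the 9 runs of 3 peaks with every member in a subdomain, those with the longest span outside chromosome I lay on chromosome III from 12135883 to 12153535 and from 13708908 to 13722011, and on chromosome IV from 384058 to 395290. The first lay within 1 subdomain, and the other two were each divided between 2 subdomains. Replicate 2 had 3, 2 and 3 peaks in them. In the first, the replicate 1 distances of 590 and 64 bp stood against 3029 and 2089 bp in replicate 2, whose middle peak scored 73.64. In the second, replicate 2 lacked the first replicate 1 peak, which scored 116.16.

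Of the 5 runs of 3 peaks with every member in a small or medium gap, those with the longest span outside chromosome I lay on chromosome X from 1444939 to 1455102, on IV from 12042694 to 12052618 and on V from 5268328 to 5276041. The run on V lay in a small gap and held 3 peaks in each list, with distances of 433 and 241 bp in replicate 1 and of 483 and 519 bp in replicate 2. The run on X, in a medium gap, also held 3 peaks in each list, although its last peak scored 71.95 in replicate 1 and 146.40 in replicate 2. In the run on IV, replicate 2 lacked the middle peak, which scored 339.01 in replicate 1.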

How the data were processed

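The authors deposited a list of H3K4me3 peaks for each replicate, with a start, an end and a score. The text deposited with the lists gives the score as the negative log10 of the p-value, multiplied by 10, and a p-value threshold of 1e-05. Peak names show the MACS program, with no version given. The submitters' processing notes name BWA, whereas the paper describes MAQ and ce4 for its own H3K4me3 profiles. The genome build is not given in the lists. No peak ended beyond the chromosome ends in the study's table of arms. The 2 input libraries, genes and sequences were not analysed here.

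Starts were converted to count from 1, and distances are the bases between edges. Subdomains, gaps and arms were read from the study's supplementary tables, and peaks were assigned by midpoint. Where a gap and the following subdomain shared a base, that base was given to the subdomain. An overlap was at least 1 bp. The members and lists were chosen with earlier results of these data known. Named runs were the 5 with most peaks, those with most peaks on each chromosome, in subdomains and in small or medium gaps (ties by longer span), and the extremes of distance. Runs on chromosome I were counted but not named. Functions were tested on simulated layouts. Tables were handled with pandas 2.3.3 and numpy 2.4.6 under Python 3.11.15, intervals came from scipy 1.17.1, and figures from matplotlib 3.10.9.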

Additional observations from a re-analysis of the deposited data

How the results depend on the processing

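Of 59 alternative values over 7 results, 22 kept their sign and moved by less than 1 SD over the replicates. Another 31 moved by 1 SD or more without a change of sign. The last 6 changed sign and were counted apart, whatever the size of their move. That SD rests on 2 lists. Values without replicate 1 are the replicate 2 values that enter the SD, so by construction they always differ by more than 1 SD. The difference in median width between members and other peaks (-13.0 bp) had no stable sign. With limits of 1000, 1500, 3000 and 5000 bp it was 132, 4.50, 5.00 and 7.50 bp, the share of closely spaced peaks was 12.7, 18.1, 33.7 and 47.2%, and runs of 3 or more were 6.87, 9.45, 16.4 and 27.5% of runs, and a wider limit can only add links. The difference in overlap by the other replicate was -2.50 and -1.80 percentage points at 3000 and 5000 bp, and at 5000 bp the differences in subdomains and centres were -13.6 and 11.2. Without replicate 1, by the rule applied to replicate 2, the share was 22.1%, links kept apart 64.2%, the overlap difference -2.24, the width difference 31.0 bp, the subdomain and centre differences -5.69 and 3.61, and runs of 3 or more 13.6%. Values without replicate 2 are those reported, where they need only 1 list. With only the peaks at or above the median score, the share was 11.8%, links kept apart 99.1%, the overlap difference 0, the width difference -132 bp, the subdomain difference -4.30 and runs of 3 or more 5.50%. With only peaks overlapped by replicate 2, which leaves out links that lack a counterpart, these were 20.2% closely spaced, 98.0% kept apart, 9.0 bp in width and 11.2% in runs of 3 or more. With at least 50% of each replicate 1 peak covered by a replicate 2 peak, links kept apart were 65.4%. With overlaps of at least 50% of both peaks, the overlap difference was -5.25. On autosomes only, the width difference was -54.0 bp and runs of 3 or more 13.8%. Why these values moved was not tested. The differences in subdomains and centres kept their sign under all alternatives run. No paired analysis was possible because only the lists of the H3K4me3 libraries were used. The lists hold no sites weaker than the p-value threshold, and without read counts the valleys between neighbours cannot be measured.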

Other observations

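Replicate 2 had 4 runs of closely spaced peaks, out of 359, that no replicate 1 peak overlapped. The largest lay on chromosome III from 9965808 to 9979480 and held 4 peaks of 2103, 3924, 2810 and 2351 bp, with scores of 229.53, 343.08, 100.4 and 75.14. The others lay on chromosome III from 3619489 to 3625212 with 2 peaks, on chromosome IV from 1610193 to 1614604 with 2 peaks and on chromosome X from 2900445 to 2908524 with 3 peaks. Replicate 1 had 19 runs, out of 430, that no replicate 2 peak overlapped. Of these 19, 18 were pairs, as were 376 of all 430 runs. Among all neighbouring pairs, the other list had a peak at neither side for 0.230% in replicate 2 and 2.60% in replicate 1. Over the whole lists, 97.3% of replicate 2 peaks and 86.2% of replicate 1 peaks were overlapped by the other list. The counts of runs were not tested against these shares.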
